A study of Mus musculus with 24 samples.

Results

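Regions of open chromatin called by ATAC-seq at day 0 (D0) of cardiac differentiation were set against those called in the 2i stage that came before it. ATAC-seq marks accessible DNA by the places where a transposase can insert sequencing adapters. Both stages are A2lox.cre cells, 1 established mouse embryonic stem cell line, with 2 biological replicates each among the 24 samples of 12 time points. The labels call the D0 cells an intermediate of cardiac differentiation and the 2i cells embryonic stem cells, and the medium used at D0 is not given in the sources used here. Each time point has a single peak list that its replicates share, so no value has a replicate spread and no difference was tested. A region was taken as shared where intervals of the 2 lists overlapped by at least 1 bp, and otherwise as D0-only or 2i-only. The 35151 intervals at D0 and 41196 intervals at 2i formed 49726 regions, of 128693 regions over all 12 lists, which held between 31324 peaks (D1) and 66993 peaks (D7). Of these, 8651 were D0-only, 14709 were 2i-only and 26366 were shared.

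The name 2i stands for a culture with inhibitors of MEK and of GSK3, which holds mouse embryonic stem cells in the naive state of the early epiblast. MEK inhibition blocks FGF and ERK signalling, and GSK3 inhibition stabilises beta-catenin and relieves repression by Tcf7l1. Once the inhibitors are withdrawn, naive factors such as Esrrb, Klf4 and Tfcp2l1 decline, formative genes such as Otx2, Fgf5 and the de novo DNA methyltransferases are switched on, and the low DNA methylation of 2i culture gives way to higher levels. Pou5f1 and Sox2 remain active on both sides of that step.

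Promoters are shown first, since they are the places where a stage-specific call can be read against sequence. Of the 132 list genes in the promoter table, 9 had a window at a D0-only region, 6 had one at a 2i-only region and 73 had one at a shared region. Of all 17274 genes in that table, 488 had a window at a D0-only, 430 at a 2i-only and 9384 at a shared region. Over all 21045 windows 2.52% lay at a D0-only, 2.13% at a 2i-only and 51.6% at a shared region. The genes printed were chosen after their values were seen, as those with a role in pluripotency, DNA methylation, the germline or Wnt signalling. Each is a RefSeq window on GRCm38.p6 of 300 bases, with 250 bases before the transcription start and 50 after it, read 5′ to 3′ on the strand of the gene. Capitals mark every match, on either strand, to 6 short motifs: the E-box CACGTG, the E2F site GCGGGAA, the octamer ATGCAAA, the TCF/LEF site CTTTGAT, the OTX site TAATCC and the ETS site CCGGAAG. None of the matches printed overlapped another. The first 7 windows touched a D0-only region and the last 2 touched a 2i-only region.
Ddx4: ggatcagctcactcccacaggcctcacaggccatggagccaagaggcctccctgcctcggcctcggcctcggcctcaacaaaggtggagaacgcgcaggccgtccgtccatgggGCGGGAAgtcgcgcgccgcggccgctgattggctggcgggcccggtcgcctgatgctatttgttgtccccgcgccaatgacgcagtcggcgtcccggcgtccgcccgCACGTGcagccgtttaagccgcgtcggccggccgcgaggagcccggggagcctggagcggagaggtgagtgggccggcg
Hormad1: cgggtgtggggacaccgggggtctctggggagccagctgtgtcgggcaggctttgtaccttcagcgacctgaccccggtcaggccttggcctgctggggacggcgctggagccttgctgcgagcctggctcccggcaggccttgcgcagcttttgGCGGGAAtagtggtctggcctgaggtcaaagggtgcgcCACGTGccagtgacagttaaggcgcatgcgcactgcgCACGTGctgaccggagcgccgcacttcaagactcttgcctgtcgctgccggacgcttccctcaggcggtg
Dnmt3l: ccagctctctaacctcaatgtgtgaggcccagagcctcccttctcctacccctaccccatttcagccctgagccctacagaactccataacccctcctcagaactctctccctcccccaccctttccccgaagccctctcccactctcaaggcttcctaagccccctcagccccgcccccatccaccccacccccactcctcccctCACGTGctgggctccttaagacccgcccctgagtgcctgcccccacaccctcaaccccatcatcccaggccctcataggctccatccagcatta
Dnmt3a: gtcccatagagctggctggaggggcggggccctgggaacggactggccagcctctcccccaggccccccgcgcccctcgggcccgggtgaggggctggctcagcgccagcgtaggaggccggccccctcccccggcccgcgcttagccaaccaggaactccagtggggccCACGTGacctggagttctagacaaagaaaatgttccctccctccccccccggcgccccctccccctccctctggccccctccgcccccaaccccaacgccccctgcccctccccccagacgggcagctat
Foxd3: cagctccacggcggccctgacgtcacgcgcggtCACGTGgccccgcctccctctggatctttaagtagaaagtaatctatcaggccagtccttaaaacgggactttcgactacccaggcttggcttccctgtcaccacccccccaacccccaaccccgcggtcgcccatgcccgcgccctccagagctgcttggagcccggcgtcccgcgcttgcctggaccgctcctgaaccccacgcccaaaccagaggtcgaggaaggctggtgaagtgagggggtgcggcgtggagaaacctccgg
Otx2: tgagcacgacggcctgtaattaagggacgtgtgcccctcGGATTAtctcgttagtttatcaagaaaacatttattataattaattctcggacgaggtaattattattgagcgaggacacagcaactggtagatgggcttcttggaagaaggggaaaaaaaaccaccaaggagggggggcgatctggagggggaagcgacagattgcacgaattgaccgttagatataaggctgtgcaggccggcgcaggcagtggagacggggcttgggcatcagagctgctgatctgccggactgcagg
T: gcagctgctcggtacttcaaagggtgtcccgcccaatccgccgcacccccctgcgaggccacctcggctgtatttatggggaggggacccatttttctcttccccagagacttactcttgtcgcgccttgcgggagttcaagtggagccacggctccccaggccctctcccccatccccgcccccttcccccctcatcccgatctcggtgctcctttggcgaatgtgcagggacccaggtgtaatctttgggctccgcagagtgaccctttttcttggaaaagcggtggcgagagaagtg
Nanog: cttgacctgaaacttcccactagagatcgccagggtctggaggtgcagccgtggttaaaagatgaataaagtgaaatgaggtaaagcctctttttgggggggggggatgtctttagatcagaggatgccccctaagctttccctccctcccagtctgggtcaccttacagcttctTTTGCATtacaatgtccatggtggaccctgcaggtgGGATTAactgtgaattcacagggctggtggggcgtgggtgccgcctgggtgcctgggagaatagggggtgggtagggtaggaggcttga
Lef1: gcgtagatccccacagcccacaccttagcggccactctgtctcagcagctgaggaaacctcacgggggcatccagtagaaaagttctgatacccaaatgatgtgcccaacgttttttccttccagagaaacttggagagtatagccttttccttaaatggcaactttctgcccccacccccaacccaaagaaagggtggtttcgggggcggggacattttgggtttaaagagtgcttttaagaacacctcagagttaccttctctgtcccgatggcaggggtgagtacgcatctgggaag

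Ddx4, a germ cell RNA helicase, has its window at chr13:112652261-112652560 on the minus strand, and its D0-only region of 390 bp had the highest pileup of the germline promoters printed. The pileup is the number of extended reads stacked over the summit base, recovered from the fold enrichment and −log10 p that the authors deposited. At Ddx4 it was 14 reads at D0 over a Poisson background of 1.49 reads, with a fold enrichment of 6.02. Hormad1, which organises meiotic chromosome axes, has its window at chr3:95559427-95559726 on the plus strand and had 11 reads at D0. Both windows held an E-box and an E2F site, and Hormad1 held a second E-box. Both regions were called again at D1 and D3, and neither after D3.

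Dnmt3l, the regulatory partner of the de novo methyltransferases, has the printed window at an internal start, chr10:78049592-78049891 on the plus strand. The D0 pileup there was 11 reads and the only later call was at D3. Dnmt3a, a de novo methyltransferase, has the printed window at an internal start, chr12:3891494-3891793 on the plus strand, with 13 reads at D0 and calls in all 10 later lists. Foxd3, a repressor active in early epiblast, has its window at chr4:99656049-99656348 on the plus strand with 15 reads. Each of these 3 windows also held an E-box.

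Otx2, a homeobox factor of the formative state, has the printed window at an internal start, chr14:48665060-48665359 on the minus strand. Its D0-only region overlapped the window by 34 bp, had 8 reads and stood at percentile 1.40 of −log10 p within the D0 list, so it was among the weakest calls made. T (Brachyury), the primitive streak regulator, has its window at chr17:8434173-8434472 on the plus strand, with 10 reads at D0 and calls in 7 later lists from D2 on. On the side of 2i, the first of the printed pair is Nanog, a core pluripotency factor, at chr6:122707239-122707538 on the plus strand. It held an octamer and an OTX site, and its region had 29 reads at 2i over a local background of 9.65, with a fold of 2.82. Though missing from the D0 list, that region was called again at D1, D2 and D3. Lef1, a Wnt effector and Wnt target, has the printed window at an internal start, chr3:131112541-131112840 on the plus strand. The region there had 16 reads at 2i and calls in 9 later lists, D1 among them. At the start of the Lef1 gene body the region was shared, with 14 reads at D0 and 14 at 2i.

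An E-box lay in the windows of 5 of the 9 list genes with a D0-only promoter region and of 0 of the 6 with a 2i-only one. Over all 21045 windows in the table it lay in 7.91%, over the 531 D0-only windows in 9.79% (Wilson 95% interval 7.55 to 12.6%), over the 449 2i-only windows in 8.46% (6.23 to 11.4%) and over shared windows in 10.7%. The share among all D0-only promoters was therefore near that of the shared ones. The E2F site lay in 8.10% of D0-only windows (6.07 to 10.7%), in 3.79% of 2i-only windows (2.38 to 5.98%), in 9.46% of shared windows and in 6.02% of all. The ETS site lay in 9.79% of D0-only, 12.9% of 2i-only and 11.7% of all windows, and in 2059 of 10856 shared ones. The octamer lay in 4.27%, the TCF/LEF site in 3.25% and the OTX site in 6.39% of all windows. D0-only promoters had a median of 17 CpG dinucleotides per window, 2i-only promoters 13, shared promoters 23 and promoters without a call at either stage 3. Intervals on shares here and below cover counting error only.

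The 2 lists differed mostly at their weak ends. In such bulk samples, fewer cells with an open region and less access per cell cannot be told apart. Of the D0 intervals 75.4% (74.9 to 75.8%) were shared, and of the 2i intervals 64.3% (63.8 to 64.8%). In the top decile of each list by −log10 p, 4 of 3515 D0 intervals and 38 of 4119 2i intervals had no partner. In the bottom decile 37.3% of D0 intervals and 25.3% of 2i intervals were shared. The D0-only regions made up 17.4% of all regions, the 2i-only regions 29.6% and the shared ones 53.0%. With the same number of intervals from each list, the 35151 strongest, 10212 regions were D0-only, 10268 were 2i-only and 24809 were shared.

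**Figure D1:**
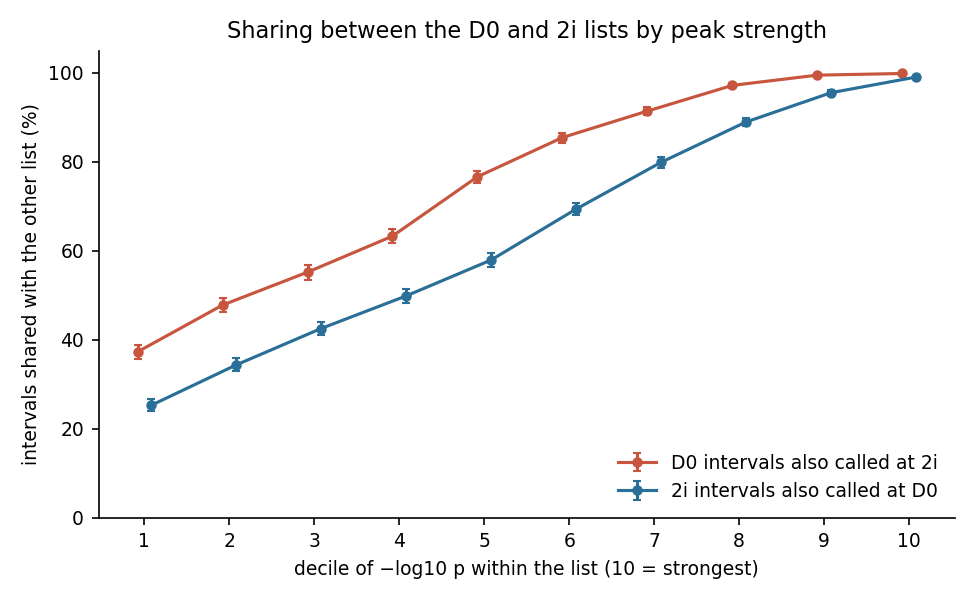
Share of intervals with a partner in the other list (y axis, percent) by decile of −log10 p within their own list (x axis, 10 is strongest); red is D0, blue is 2i, bars are Wilson 95% intervals. Both curves climb from 37.3% at D0 and 25.3% at 2i to above 99%, and D0 lies above 2i in every decile.

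The reads behind each call could be read back from the deposited values. A whole-number pileup and a Poisson background gave both the fold enrichment and the −log10 p of each of the 34484 D0 peaks and 38737 2i peaks with a −log10 p under 20, within 0.005. The lowest background of a list, taken as its genome-wide level, was 1.49 reads per base at D0 and 1.36 at 2i, a ratio of 1.10. Over all 12 lists it lay between the 1.36 of 2i and the 2.84 of D7. D0-only intervals had a median summit pileup of 10 reads (quartiles 8 and 11), against 17 (12 and 27) for D0 intervals shared with 2i. 2i-only intervals had 11 reads (9 and 13), against 20 (13 and 31) for 2i intervals shared with D0. A pileup of 10 or fewer reads carried 64.4% of the D0-only and 49.3% of the 2i-only intervals. Only 132 D0-only intervals had 20 or more reads, against 1002 2i-only intervals. The same pileup weighed slightly less at D0: 9 reads over the lowest background gave a −log10 p of 5.41 at D0 and of 5.76 at 2i.

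Regions of 1 stage were also narrower, with medians of 366 bp for D0-only, 398 bp for 2i-only and 775 bp for shared regions. More than 1 summit was present in 1.35% of D0-only intervals against 16.5% of shared D0 intervals, and in 2.08% of 2i-only against 14.6% of shared 2i intervals. The 1 bp rule placed few regions by a narrow margin. Of the shared D0 intervals, 73 overlapped their partner by under 50 bp, against a median overlap of 528 bp. Just outside the rule, 46 D0-only regions lay under 50 bp from a 2i interval and 53 2i-only regions under 50 bp from a D0 interval, while the median distances were 22.6 kb and 17.3 kb.

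Where both stages had a call, the height of the pileup still differed at single loci. Over 26359 shared regions the median log2 ratio of the summit pileups, D0 over 2i, was -0.15 (quartiles -0.51 and 0.19). The ratio was at least 2-fold higher at D0 in 455 regions and at least 2-fold higher at 2i in 1897. Of shared regions within 1 kb of a gene end 1.85% were 2-fold higher at D0 and 2.29% at 2i. Inside genes and over 1 kb from their ends the shares were 1.35% at D0 and 9.12% at 2i, and over 50 kb from genes 2.37% at D0 and 10.2% at 2i. These pileups were not scaled for depth. Divided by the lowest background of each list, the median log2 ratio was -0.28, and 197 regions were at least 2-fold higher at D0 and 2595 at 2i.

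Several list genes had a shared region at the 2i end of that range, and those named here were chosen after their values were seen. A shared region 33.6 kb right of Otx2, by coordinate, at chr14:48700805-48701777, had 10 reads at D0 and 42 at 2i. Gsc, an organiser homeobox gene, had 10 reads at D0 and 58 at 2i in a region 18.0 kb to its left, among the 10 most 2i-skewed of all shared regions. Inside Tet2, which encodes an enzyme of DNA demethylation, chr3:133524351-133525376 had 29 reads at D0 and 90 at 2i. Inside Tfcp2l1, a naive factor, chr1:118642384-118643145 had 14 reads at D0 and 44 at 2i. Tcf7l1, the repressor that GSK3 inhibition relieves, had 14 reads at D0 and 40 at 2i in a region inside the gene. Foxd3 had 17 at D0 and 50 at 2i in a region 19.8 kb to its left. At Dppa2, a regulator of early embryonic genes, a region 6.60 kb to the left had 14 reads at D0 and 35 at 2i.

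Fewer listed loci lay at the D0 end, as was so over all shared regions. Etv4, an ETS factor downstream of FGF signalling, had 29 reads at D0 and 11 at 2i in a region inside the gene. Col4a1, a basement membrane collagen, had 30 at D0 and 13 at 2i. Bmp4, a ligand of the BMP pathway, had 18 at D0 and 8 at 2i in a region 20.2 kb to its right, and Sox1, a neural factor, had 19 at D0 and 9 at 2i. Tex19.1, a germline and placental gene, had 20 at D0 and 10 at 2i. Among the 338 shared regions near genes of the 15 lists, these 5 were at least 2-fold higher at D0 and 47 were at least 2-fold higher at 2i. Over all 26359 shared regions 1.73% were at least 2-fold higher at D0 and 7.20% at 2i. After scaling to the background, Etv4, Col4a1 and Bmp4 remained at D0, 3 regions, against 54 at 2i. The most D0-skewed shared region of the genome lay 14.2 kb right of Msantd4, with 32 reads at D0 and 7 at 2i, and the most 2i-skewed 43.7 kb right of Ralgps2, with 11 at D0 and 69 at 2i.

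**Figure D2:**
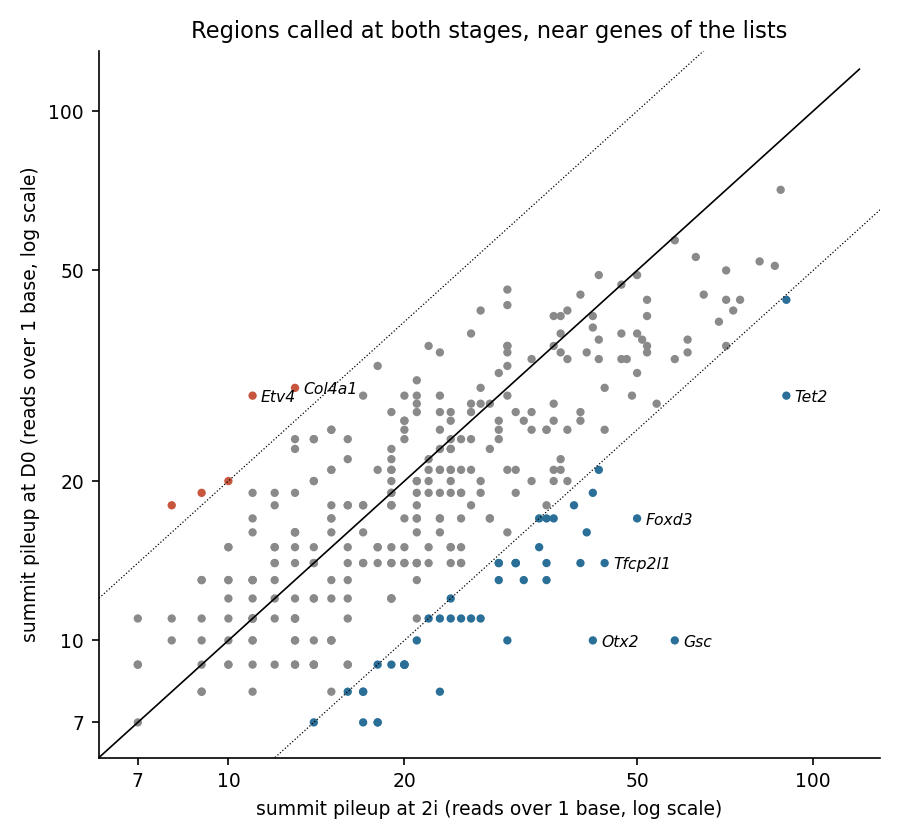
Summit pileup at D0 (y axis) against 2i (x axis), both in reads over 1 base on log scales, for the 338 shared regions near genes of the lists; the solid line marks equal pileups and the dotted lines a 2-fold difference. Red points are 2-fold or more higher at D0 (5 regions) and blue points 2-fold or more higher at 2i (47 regions), among them Gsc, Otx2 and Tet2.

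Most core pluripotency genes had calls at both stages. Of the 12 genes 11, all but Dppa4, had a shared region, against 61.3% of all protein-coding genes. A D0-only region lay near 4 of the genes and a 2i-only region near 6, against 18.4% and 29.6% of all genes, and there were 5 D0-only, 6 2i-only and 21 shared regions in all. D0-only regions were 15.6% of the list's regions, against 14.3% over all genes, and 2i-only regions 18.75%, against 28.9%. Pou5f1, the central pluripotency factor, had 1 region near it, shared, with 20 reads at D0 and 21 at 2i. Sox2, its partner, had 29 reads at D0 and 17 at 2i at the gene and a D0-only region 11.9 kb to the right, with 12 reads, that was called in 7 later lists. Nanog had a shared region 4.70 kb to its left with 51 reads at D0 and 86 at 2i, a 2i-only region at its start and a D0-only region of 8 reads inside the gene. Sall4, a zinc finger partner of these factors, had 2 D0-only regions inside the gene, of 26 and 18 reads, that were called in 8 and 10 later lists. Its remaining region, shared and 24.2 kb to the right, had 7 reads at D0 and 18 at 2i.

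Naive pluripotency genes had 11 D0-only, 25 2i-only and 67 shared regions. A D0-only region lay near 6 of the 21 genes, against 18.4% of all 21631 protein-coding genes. A 2i-only region lay near 12, against 29.6% of all genes, and every gene of the list had a shared region. Of the regions near these genes 10.7% were D0-only and 24.3% 2i-only, against 14.3% and 28.9% of regions assigned to any gene. With equal numbers of intervals, 8 genes had a D0-only and 8 a 2i-only region, against 21.8% and 23.4% of all genes at that setting. Esrrb, an orphan nuclear receptor, had 3 D0-only, 4 2i-only and 6 shared regions. The tallest shared one, at chr12:86501612-86502267 inside the gene, had 53 reads at D0 and 63 at 2i, and the 2i-only region next to it, at chr12:86504374-86504781, had 38 reads at 2i and no later call. Zfp42, which encodes the marker Rex1, had 2 D0-only, 4 2i-only and 5 shared regions. Its tallest, 14.1 kb to the right, had 71 reads at D0 and 88 at 2i, while its stage-specific regions had 9 and 11 reads at D0 and between 9 and 18 at 2i.

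Other naive loci were mostly shared. Klf2, a MEK-sensitive naive factor, had 3 shared regions and no other, with 41 reads at D0 and 52 at 2i at the gene. Tbx3, a T-box factor of the naive network, had 4 shared regions and no other, of 12 to 31 reads at D0 and 12 to 36 at 2i. Klf4, a direct LIF target, had 2 2i-only and 3 shared regions. The shared region 12.2 kb to its left had 35 reads at D0 and 23 at 2i. The one 49.4 kb to its left had 18 at D0 and 39 at 2i, and the one 0.275 kb to its right had 36 at each stage. Klf5, a related factor, had 1 D0-only, 2 2i-only and 4 shared regions. Tfcp2l1 had 4 shared regions and 2 2i-only ones, both at a −log10 q of 5 or more. Dppa3, a maternal factor marking naive cells, and Prdm14, a repressor of FGF signalling, each had 2 2i-only and 3 shared regions and no D0-only one. Nr5a2, a nuclear receptor, had 3 D0-only, 2 2i-only and 1 shared region. Jam2, an adhesion molecule, had 1 D0-only, 2 2i-only and 5 shared regions.

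Formative and primed genes had 9 D0-only, 7 2i-only and 36 shared regions. A D0-only region lay near 7 of the 18 genes, against 18.4% of all genes, and a 2i-only region near 5, against 29.6%. D0-only regions were 17.3% and 2i-only regions 13.5% of the list's regions, against 14.3% and 28.9% over all genes. With a −log10 q of at least 5, 1 gene was left on each side. Of all 21631 genes 900 then had a D0-only and 2969 a 2i-only region. Fgf5, the epiblast growth factor, had 2 shared regions, with 14 and 17 reads at D0 and 21 and 35 at 2i. Pou3f1, an epiblast POU factor, had 16 reads at D0 and 23 at 2i at its start. Otx2 had 1 D0-only, 2 2i-only and 4 shared regions. Tcf15, a helix-loop-helix factor of cells leaving the naive state, had 2 D0-only regions at 6.33 and 7.39 kb to its right, neither called later. Cdh2, which encodes N-cadherin, also had 2 D0-only regions, and 1 of them was the only D0-only region of this list to reach a −log10 q of 5.

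Genes of DNA methylation had D0-only regions at 4 of 9 genes, against 18.4% of all genes, and 2i-only regions at 2, against 29.6%. By region the D0-only share was not raised: 12.5% of the list's 32 regions were D0-only and 21.9% 2i-only, against 14.3% and 28.9% over all genes. Besides Dnmt3a and Dnmt3l, the D0-only regions lay at Tet1 and Tet2, which encode demethylases, and none of the 4 had a −log10 q of at least 5. Dnmt3b, the other de novo methyltransferase, had 1 shared region with 18 reads at D0 and 17 at 2i. Tet2 had 1 D0-only, 6 2i-only and 8 shared regions, and none of its 6 2i-only regions was called later. Tet3, another demethylase, had 1 2i-only region, called again from D2 to D6.

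Germline genes, many of them silenced by promoter methylation in somatic cells, had 5 D0-only, 1 2i-only and 5 shared regions. A D0-only region lay near 5 of the 12 genes, against 18.4% of all genes, and a 2i-only region near 1, against 29.6%. D0-only regions were 45.5% of the list's 11 regions, against 14.3% over all genes. Ddx4, Hormad1 and Sycp3, a component of the synaptonemal complex, had theirs within 1 kb of a gene end. Over all protein-coding genes a D0-only region lay at an end of 3.69% and a 2i-only region at an end of 4.17%. Sycp3 had 16 reads at D0 and was called again at D2 and D3. Stk31 had its D0-only region 17.8 kb inside the gene, and Dazl, an RNA-binding regulator of germ cells, had its own 41.6 kb to the left, with 8 reads each. Both genes also had a shared region at an end, with 30 reads at D0 and 44 at 2i at Dazl. Sycp1, another synaptonemal protein, had the only 2i-only region, of 7 reads. With a −log10 q of at least 5 the D0-only regions of Ddx4 and Sycp3 remained, 2 of 12 genes, against 4.16% of all genes.

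**Figure D3:**
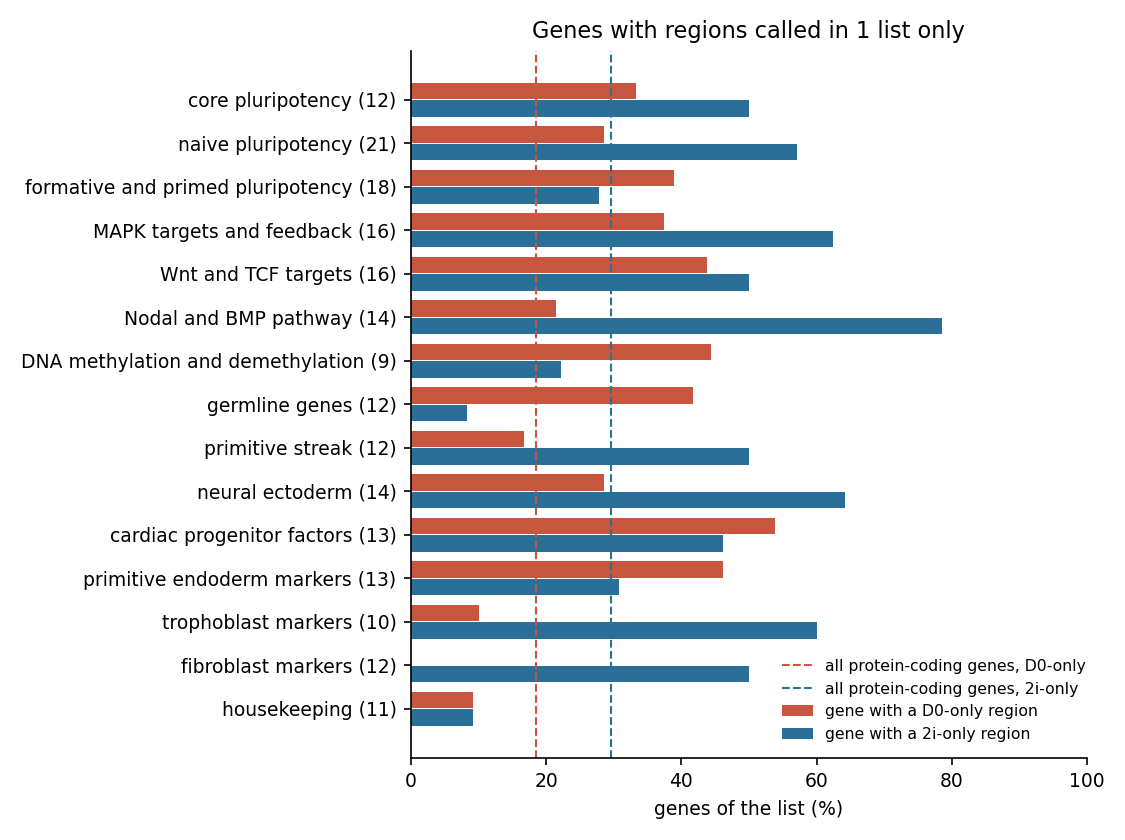
Share of the genes of each list (x axis, percent; list size in brackets) with a D0-only region (red) and with a 2i-only region (blue); dashed lines give the shares over all 21631 protein-coding genes, 18.4% for D0-only and 29.6% for 2i-only. Red is longer than blue in the formative, DNA methylation, germline, cardiac and primitive endoderm lists, equal to it in the housekeeping list, and shorter in the other lists.

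Near targets of MAPK signalling, the shares of regions of 1 stage were close to those over all genes, while more of the genes had such a region than genes at large. MAPK targets and feedback genes had 9 D0-only, 19 2i-only and 36 shared regions, with a D0-only region near 6 of 16 genes, against 18.4% of all genes, and a 2i-only region near 10, against 29.6%. D0-only regions were 14.1% and 2i-only regions 29.7% of the list's regions, against 14.3% and 28.9% over all genes. Dusp6, an ERK phosphatase, had no D0-only region, and its 3 2i-only regions lay 12.3, 25.9 and 43.4 kb to its right. The middle one, at chr10:99293126-99293573, had 25 reads and a fold of 8.77 and was called in no later list. A shared region 31.4 kb to the right had 10 reads at D0 and 21 at 2i, and the pair of shared regions just left of the gene had 29 and 49 at D0 and 30 and 50 at 2i. Spry4, an ERK feedback inhibitor, had 2 D0-only and 2 2i-only regions and no shared one. Spry2, a related inhibitor, had 3 2i-only and 6 shared regions. Etv5, an ETS factor, had 1 D0-only, 1 2i-only and 4 shared regions, and Etv1 had 3 D0-only and 1 shared. Myc, a target of both pathways, had 1 D0-only region of 15 reads, 4 2i-only regions and 4 shared ones.

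Wnt and TCF targets had 9 D0-only, 22 2i-only and 29 shared regions, near 7 of 16 genes for D0-only, against 18.4% of all genes, and 8 for 2i-only, against 29.6%. Regions called at 2i only were 36.7% of this list's regions, against 28.9% of regions assigned to any gene. Those called at D0 only were 15%, near the 14.3% over all genes. Tcf7l1 had 2 D0-only and 8 2i-only regions, the 2 strongest of them with 18 and 23 reads. Axin2, a Wnt feedback inhibitor, had 1 D0-only, 4 2i-only and 5 shared regions, with 37 reads at D0 and 61 at 2i in the tallest. Lef1 had 1 D0-only, 2 2i-only and 3 shared regions. Tcf7l2, another TCF factor, had 2 D0-only and 1 2i-only region. T had no assigned region, since the D0-only region at its start was assigned to another annotated gene.

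Nodal and BMP pathway genes had 3 D0-only, 19 2i-only and 25 shared regions, and 11 of the 14 genes had a 2i-only region, the highest share of any list, against 29.6% of all genes. D0-only regions were 6.38% and 2i-only regions 40.4% of the list's regions, against 14.3% and 28.9% over all genes. Smad7, an inhibitor of the pathway, had 1 D0-only and 4 2i-only regions. Id1, a BMP target, had 3 2i-only regions of 8 or 9 reads, and the pair nearest the gene was called again in 9 later lists. Lefty1, a Nodal antagonist, had 2 2i-only regions, both called again at D2 and D3. With a −log10 q of at least 5, a D0-only region lay near 0 of the 14 genes, against 4.16% of all genes, and a 2i-only region near 6, against 13.7%.

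**Figure D4:**
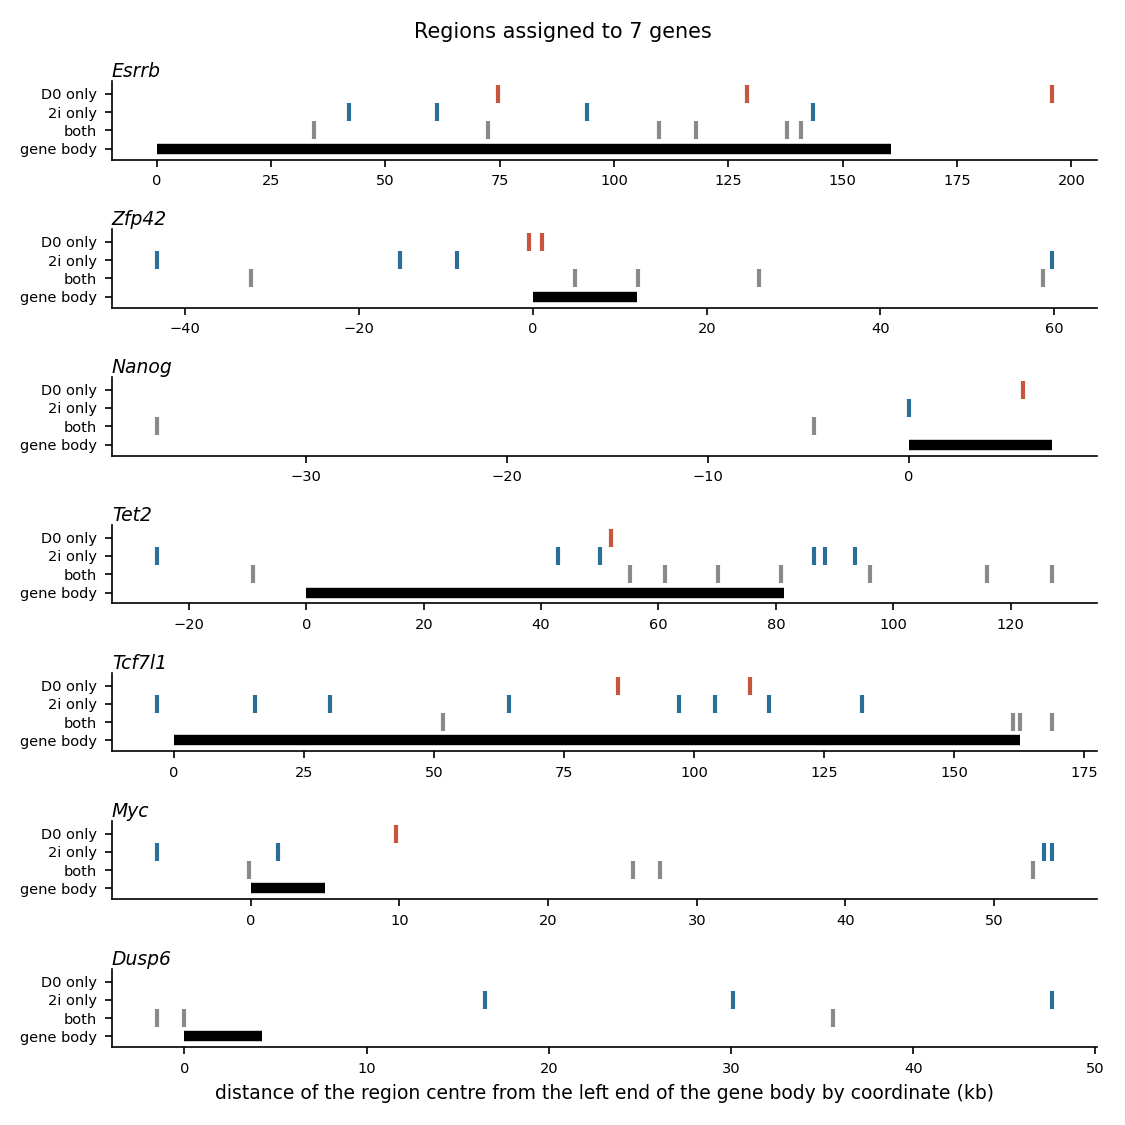
Position of every region assigned to 7 genes (x axis, kb from the left end of the gene body by coordinate, a separate scale for each gene), in rows for D0-only, 2i-only and shared regions, with the gene body as a black bar. Tet2 has 1 D0-only and 6 2i-only ticks, Tcf7l1 has 2 D0-only and 8 2i-only ticks, and at Dusp6 the 2i-only ticks lie to the right of the gene.

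Genes of later lineages had more 2i-only than D0-only regions, as did all genes together, of whose regions 14.3% were D0-only and 28.9% 2i-only. Primitive streak genes had 3 D0-only, 13 2i-only and 10 shared regions, so that 11.5% of their regions were D0-only and 13 of 26 were 2i-only. Foxa2, an endoderm and node factor, had 4 2i-only regions of 14 to 22 reads and no D0-only one, and each was called again in 2 to 6 later lists. Gsc had 3 2i-only regions and Evx1, a streak homeobox gene, 2 D0-only and 2 2i-only. Neural ectoderm genes had 4 D0-only, 12 2i-only and 24 shared regions, close to the all-gene share for 2i-only. Of the 24 shared ones 8 were 2-fold or more higher at 2i, against 7.20% of all shared regions. Cardiac progenitor factors had 9 D0-only and 19 2i-only regions, 15.5% and 32.8% of their regions, near the shares over all genes. A D0-only region lay near 7 of the 13 genes, against 18.4% of all genes, and a 2i-only region near 6, against 29.6%. Nkx2-5, a cardiac homeobox factor, had a D0-only region of 12 reads 0.841 kb from a gene end, called again in 5 later lists. Meis2, a homeobox cofactor, had 2 D0-only and 7 2i-only regions, and Mef2c, a factor of muscle genes, 2 D0-only and 4 2i-only.

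Markers of cells other than the epiblast line were looked at in the same way, against the 18.4% of all genes with a D0-only and 29.6% with a 2i-only region. Primitive endoderm markers had D0-only regions near 6 of 13 genes and 2i-only regions near 4, and Gata6, the founding factor of that lineage, had 1 shared region of 9 reads at D0 and 12 at 2i. Trophoblast markers had D0-only regions near 1 of 10 genes and 2i-only regions near 6. Cdx2, a trophoblast and Wnt-responsive factor, had 3 2i-only regions of 13 to 21 reads, called again in 6 or 7 later lists, and 1 shared region. Fibroblast markers had D0-only regions near 0 of 12 genes and 2i-only regions near 6. By region, 20.7% of those near primitive endoderm markers were D0-only and 31.0% 2i-only, against 14.3% and 28.9% over all genes. Near trophoblast markers 3.23% were D0-only and 35.5% 2i-only. Of the 12 regions near fibroblast markers 0 were D0-only and 6 were 2i-only. Whether other cell types had a part in any of these counts was not tested. Housekeeping genes had 1 D0-only, 1 2i-only and 11 shared regions, and Gapdh had 26 reads at D0 and 24 at 2i in its shared region.

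Over the genome, regions of 1 stage lay less often at gene ends and more often over 50 kb from genes than shared regions. Inside genes lay 41.1% of D0-only, 45.3% of 2i-only and 57.0% of shared regions. Within 1 kb of a gene end lay 9.34% of D0-only regions (8.74 to 9.97%), 6.25% of 2i-only regions (5.87 to 6.65%) and 38.2% of shared regions. Over 50 kb from any protein-coding gene lay 36.6% of D0-only regions (35.6 to 37.7%), 24.6% of 2i-only regions (23.9 to 25.3%) and 17.1% of shared ones. Beyond 500 kb the shares were 10.3% for D0-only, 4.19% for 2i-only and 3.46% for shared regions. D0-only intervals beyond 50 kb had a median of 9 reads, close to the 10 reads of those at gene ends. At the next step of the course, of the regions called at D1 and not at D0, 46.4% lay over 50 kb from a gene. Of those called at D2 and not at D0 16.1% did.

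Of the regions assigned to a gene, 11.7% of D0-only, 7.93% of 2i-only and 5.78% of shared ones were assigned to genes of 500 kb or more. The genes with most D0-only regions were Dlg2 with 15 D0-only and 6 2i-only regions, Macrod2 with 13 and 13, and Pcdh15 with 11 and 3, at gene lengths of 1973, 1998 and 1554 kb. Dlg2 encodes a synaptic scaffold and Pcdh15 a cadherin of inner ear hair cells. Agbl4, Fgf14, Galntl6, Mgat4c, Nkain2 and Sgcz had 9 D0-only regions each and Cntn5 had 8. On the 2i side Auts2, a gene of neuronal development, had 1 D0-only and 25 2i-only regions. Pard3, a cell polarity gene, had 2 D0-only and 24 2i-only, and Slc39a11, a zinc transporter, 0 and 19 over a gene of only 405 kb. Wdfy3, an autophagy gene of 239 kb, had 1 D0-only and 13 2i-only regions. Of these 2i-only regions 18 at Auts2, 18 at Pard3, 15 at Slc39a11 and 9 at Wdfy3 were called in no later list. The same held for 54.0% of all 2i-only regions. The rest of the 10 with most 2i-only regions were Tenm4, Pde4d, Tenm3, Macrod2, Galntl6 and Mctp1, with 12 to 17 each.

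The strongest D0-only interval by −log10 p lay at chr2:98662526-98662792, 1031 kb from the nearest protein-coding gene, and was called in all 10 later lists. Its −log10 p was 322 at D0 and between 439 at D1 and 724 at D15. Its fold was only 7.13 at D0, so that −log10 p rested on many reads over a high local background. No pileup could be solved for it, and what gave that background was not tested. Others among the 10 strongest lay inside Aida with 43 reads, near the receptor gene Olfr1118 with 34 and inside Zbtb20, a zinc finger repressor, with 26. The one near Cstad had 28 reads and the one inside 9030025P20Rik had 23. The strongest 2i-only interval lay inside Arnt2, a helix-loop-helix factor, with 73 reads. It was followed by regions in or near Filip1l with 55 reads, Bach2, a transcriptional repressor of lymphoid cells, with 43, Gm15319 with 37 and Klrb1a with 48. Further down were Clstn2 with 45, Stard8 with 44 and Ephb1 with 36 reads.

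Calls of these regions in later lists differed by where they lay. Of the D0-only regions 25.9% were called at D1 and 26.5% at D2, and of the 14709 2i-only regions 10.4% at D1 and 2812 at D2. Of the shared regions 72.7% were called at D1 and 70.9% at D2. No later list held 43.2% of D0-only, 54.0% of 2i-only and 11.5% of shared regions. At gene ends, 31.7% of D0-only regions were called at D1 and 72.2% at D2, against 17.2% of 2i-only regions at D1 and 53.6% at D2. Elsewhere the D0-only share was 25.3% at D1 and 21.8% at D2, and the 2i-only share 9.99% at D1 and 16.8% at D2. Regions with a −log10 q of at least 5 in their own list and no interval in the other numbered 1556 at D0 and 5052 at 2i. Of these, 51.2% of the D0-only (48.7 to 53.7%) and 13.4% of the 2i-only regions (12.5 to 14.3%) were called at D1.

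**Figure D5:**
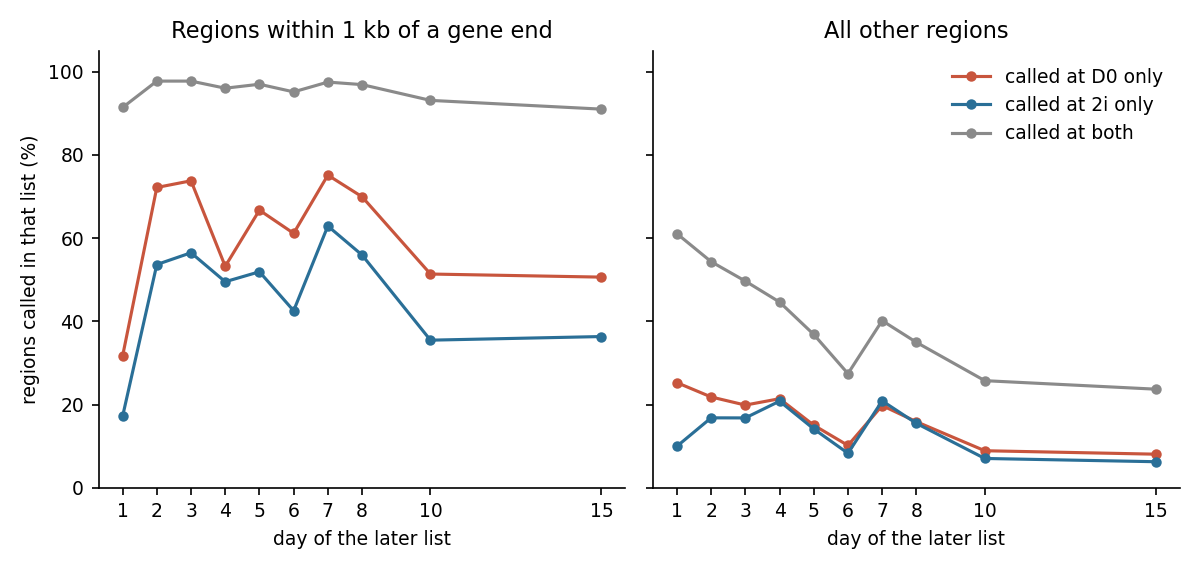
Share of D0-only (red), 2i-only (blue) and shared (grey) regions called in each later list (y axis, percent) by its day (x axis), for regions within 1 kb of a gene end (left panel) and all others (right panel). At gene ends the D0-only line stands at 31.7% at D1 and 72.2% at D2, and elsewhere at 25.3% at D1 and 21.8% at D2.

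Near the genes of the 15 lists, 26 of 76 D0-only regions and 78 of 168 2i-only regions had no later call. Over the genome 43.2% of D0-only and 54.0% of 2i-only regions had none. By chromosome, the D0-only share of regions lay between 12.6% on X and 20.5% on chromosome 16, and the 2i-only share between 21.3% on chromosome 19 and 33.5% on chromosome 1. As a Jaccard index (the shared part of all regions in a pair), the overlap was 0.530 for D0 and 2i, 0.524 for D1 and D0 and 0.435 for D1 and 2i. With equal numbers of intervals it was 0.548 for D0 and 2i and 0.567 for D1 and D0.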

How the data were processed

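ATAC-seq was measured in 24 samples of 12 time points, and 1 deposited peak list per time point was used. The labels name the same list for both replicates; how the replicates were combined is not given in the sources used here. Per the submitters' processing notes, the tools were MACS2 2.1.1, Bowtie2 2.3.2, cutadapt 2.10, Picard and SAMtools 1.5, with the mm10 build. The authors deposited, for each peak, a fold enrichment at the summit (a ratio to the local background), its −log10 p and −log10 q, and a display score. Signal tracks and read totals of single replicates are not used here. The values used, 1 list per stage, carry no replicate spread, and no difference between stages was tested.

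Peaks with the same interval were joined. Regions were made by an overlap of at least 1 bp and assigned to the nearest of 21631 protein-coding genes of RefSeq within 50 kb of the gene body. A gene end is either end of a gene body, with a window of 1 kb. Transcription starts had been planned for this placement, but the promoter table lacks entries for some genes, 132 of 194 list genes being in it. Promoter windows were therefore a description added later. The summit pileup and its Poisson background were solved from each fold and −log10 p, a step chosen after seeing the data. The members and the 15 gene lists were chosen with earlier results of these data known. Genes named were 26 markers in any case, up to 3 genes per list and class with most regions, the 10 genes per class with most regions over the genome, and genes at the 10 strongest regions per class; other genes named, among them those with the most skewed shared regions and those whose promoters are printed, were chosen after their values were seen. Some of the genes at the strongest regions are not reported here. Shares have Wilson 95% intervals. Scripts were tested on simulated data and run with Python 3.11.15, pandas 2.3.3, numpy 2.4.6, scipy 1.17.1 and matplotlib 3.10.9.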

Additional observations from a re-analysis of the deposited data

How the results depend on the processing

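With 1 list for both replicates of a stage, no value could be given without a replicate. No paired analysis was possible because the result comes from no test and the lists carry no replicate numbers. A region missing from a list is not shown to be closed, and 64.4% of D0-only and 49.3% of 2i-only intervals rested on 10 or fewer reads. The part of sequencing depth in these calls was not tested. With a −log10 q of at least 5 in both lists, 3687 regions were D0-only, 9210 were 2i-only and 16637 were shared. Gene ends then held 22.5% of D0-only and 9.89% of 2i-only regions, and 28.1% of D0-only and 23.2% of 2i-only regions lay over 50 kb from a gene. With that threshold against the complete other list, 1556 regions were D0-only and 5052 were 2i-only. Gene ends held 11.9% of D0-only and 5.42% of 2i-only regions, 38.2% of D0-only and 23.5% of 2i-only lay over 50 kb away, and 900 genes had a D0-only and 2969 a 2i-only region. With a fold of at least 5 against the complete other list, the counts were 1312 D0-only and 4123 2i-only regions, and 743 genes had a D0-only and 2512 a 2i-only region. Gene ends then held 11.5% of D0-only and 5.17% of 2i-only regions, and 40.0% of D0-only regions lay over 50 kb away. A 500 bp window at gene ends held 7.00% of D0-only and 4.22% of 2i-only regions, and a 5 kb window 18.9% of D0-only and 17.4% of 2i-only. A reciprocal overlap of 50% gave 12.4% of D0-only and 8.79% of 2i-only at gene ends, with 32.7% of D0-only over 50 kb away. Summits within 250 bp gave 11.6% of D0-only and 7.99% of 2i-only at gene ends, with 34.2% of D0-only over 50 kb away. Equal numbers of intervals gave 10.7% of D0-only at gene ends and 34.6% over 50 kb away. Pileups divided by the lowest background left 197 shared regions at least 2-fold higher at D0. The cause of these shifts was not tested. The other 35 alternatives of the main counts and shares stayed within 1.5 times or within the interval, and among list counts 90 stayed and 62 moved. The fold threshold, the scaling, the share over 50 kb and the counts over all genes were chosen after seeing the data. Thresholds set in 1 list against the complete other list give no shared count.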
